A study of Homo sapiens with 24 samples.

Results

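The prostatic kallikreins KLK2, KLK3, KLK4 and KLK15 were followed across all 9 conditions of 2 RNA-seq experiments in LNCaP cells. The 4 genes were taken by symbol from the deposited tables, where 22227 genes are listed in the ligand tables and 23028 in the siRNA tables, and all 4 passed the filters on low values in both experiments. LNCaP is an androgen-sensitive human prostate adenocarcinoma line, and each condition here is that 1 line in culture. Cells of every condition were kept for 3 days in phenol red-free medium with charcoal-stripped serum, which is low in steroid hormones.

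In the ligand experiment, cells received vehicle, 10 nM DHT (dihydrotestosterone, the physiological androgen) for 4 h or 24 h, or 10 μM enzalutamide (an antiandrogen drug) for 4 h or 24 h, with 2 replicates per condition. A single vehicle condition with no time in its label served both times. In the siRNA experiment, cells carried a non-targeting siRNA pool (siControl) or a pool of 4 siRNAs against GATA2 (siGATA2). At 72 h after transfection they were given vehicle or enzalutamide at 25 μM for 24 h, with 3 replicates in each of the 4 groups. The vehicle condition was deposited as 4 columns, and the sample titles number 4 vehicle replicates. Of the columns, however, 3 carry replicate number 1 and different run prefixes in their names. These 3 were summed to 1 replicate because they differed from each other less than from replicate 2.

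Kallikreins are secreted serine proteases that are made as inactive precursors, and their genes lie side by side on chromosome 19. KLK3 encodes prostate-specific antigen (PSA), which liquefies semen by cutting semenogelins and is the serum marker of prostate cancer. KLK2, KLK4 and KLK15 are able to cut the PSA precursor into active PSA in vitro. KLK3 and KLK2 are textbook androgen-induced genes of luminal prostate cells, where the pioneer factors FOXA1 and GATA2 open chromatin at their enhancers and promoters.

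In the GENCODE v29 annotation of GRCh38, KLK15 (ENSG00000174562.13) lies at chr19:50825289-50837213 on the minus strand and KLK3 (ENSG00000142515.14) at chr19:50854915-50860764 on the plus strand. KLK2 (ENSG00000167751.12) lies at chr19:50861568-50880567 on the plus strand and KLK4 (ENSG00000167749.11) at chr19:50906352-50910738 on the minus strand. KLK3 and KLK2 are neighbours and close copies. The longest reading frames of their first listed transcripts have 261 codons each and are 85.4% identical, whereas identities among the other pairs of members ranged from 54.2% to 56.8%. Of the 6910 distinct stretches of 50 bases in KLK2 transcripts, 11 (0.159%) also occur in KLK3 transcripts, and no such stretch is shared by any other pair of members. KLK15 overlaps the antisense gene AC011523.1. The library kit marks strand, but the strand setting of the counting is not given in the sources used here, so the KLK15 values could include reads of that gene. The RefSeq gene at this place, LOC105372441, had between 0.0470 and 0.329 CPM in the ligand libraries and had at most 0.280 RPKM in the siRNA libraries.

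The promoters of KLK3 and KLK2 are shown because the largest changes below belong to these 2 genes and their upstream sequences are also alike. The 250 bases before the RefSeq start (GRCh38.p14, plus strand) are given 5′ to 3′. Capitals mark the stretch that matches the palindromic steroid hormone response element, AGAACA followed by 3 bases of any kind and TGTTCT.
KLK3, chr19:50854665-50854914: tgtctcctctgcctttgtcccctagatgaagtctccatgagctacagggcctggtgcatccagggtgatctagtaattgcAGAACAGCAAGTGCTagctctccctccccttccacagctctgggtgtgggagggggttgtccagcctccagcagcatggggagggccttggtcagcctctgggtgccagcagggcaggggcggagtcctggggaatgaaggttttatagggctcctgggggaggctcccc
KLK2, chr19:50873189-50873438: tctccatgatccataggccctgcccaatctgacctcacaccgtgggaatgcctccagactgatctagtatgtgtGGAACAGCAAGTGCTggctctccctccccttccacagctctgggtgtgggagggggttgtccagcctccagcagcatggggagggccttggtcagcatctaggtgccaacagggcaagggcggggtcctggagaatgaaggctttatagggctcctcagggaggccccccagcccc
The 2 windows were 79.2% identical in a global alignment. The marked stretch has 2 mismatches to the element in KLK3, where it spans positions -170 to -156 from the start. It has 3 mismatches in KLK2, where it spans -176 to -162. Among 35116 RefSeq windows of this length, 1.18% hold a match with at most 2 mismatches and 9.17% one with at most 3 mismatches on either strand. No match with up to 3 mismatches was present in the windows of KLK4 and KLK15, for which RefSeq lists 2 starts each. The motif AGATAA, bound by GATA2, and the motif TGTTTAC, bound by FOXA1, occurred in none of the members' windows on either strand. They occur in 9.17% and 2.98% of all windows. Enhancers outside the windows were not searched.

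Levels in the ligand experiment are in CPM, counts scaled to library depth after TMM adjustment (which balances library composition), and do not account for gene length. KLK3 had 259.5 and 253.5 CPM in the vehicle libraries, and 608.6 and 631.0 CPM after 4 h of DHT. After 24 h of DHT it had 2095 and 2139 CPM. The enzalutamide libraries lay below vehicle, with 224.2 and 193.8 CPM at 4 h and 108.5 and 111.4 CPM at 24 h. The 5 conditions of KLK3 thus stood in a fixed order, from enzalutamide at 24 h through enzalutamide at 4 h, vehicle and DHT at 4 h to DHT at 24 h, with no overlap between neighbours. KLK3 alone took between 0.203% and 0.208% of all estimated counts after 24 h of DHT, against 0.0257% to 0.0262% in vehicle.

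KLK2, whose product activates the PSA precursor, followed the same order over a wider range. It had 8.79 and 7.49 CPM in vehicle, 55.2 and 59.3 CPM after 4 h of DHT, and 156.7 and 152.7 CPM after 24 h of DHT. With enzalutamide it had 6.28 and 4.56 CPM at 4 h and 2.57 and 2.14 CPM at 24 h. No 2 neighbouring conditions overlapped, and the mean after 24 h of DHT was 65.6 times that after 24 h of enzalutamide.

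KLK4, an enamel and prostate protease, moved in a narrower range. Its vehicle libraries had 30.2 and 27.3 CPM, against 55.6 and 59.6 CPM after 4 h of DHT and 75.3 and 77.5 CPM after 24 h. With enzalutamide it had 26.1 and 21.8 CPM at 4 h and 23.9 and 23.5 CPM at 24 h. All 4 enzalutamide libraries were below both vehicle libraries, and the 2 enzalutamide times overlapped. The mean after 24 h of DHT was 3.22 times that after 24 h of enzalutamide.

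KLK15 was the least counted member, with 18 to 104 estimated counts in each ligand library. It had 0.859 and 0.838 CPM in vehicle, 1.28 and 1.13 CPM after 4 h of DHT, and 1.90 and 2.22 CPM after 24 h of DHT. With enzalutamide it had 0.941 and 0.628 CPM at 4 h and 0.572 and 0.363 CPM at 24 h. The enzalutamide libraries at 4 h lay on either side of vehicle, and the other neighbouring conditions did not overlap.

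**Figure D1:**
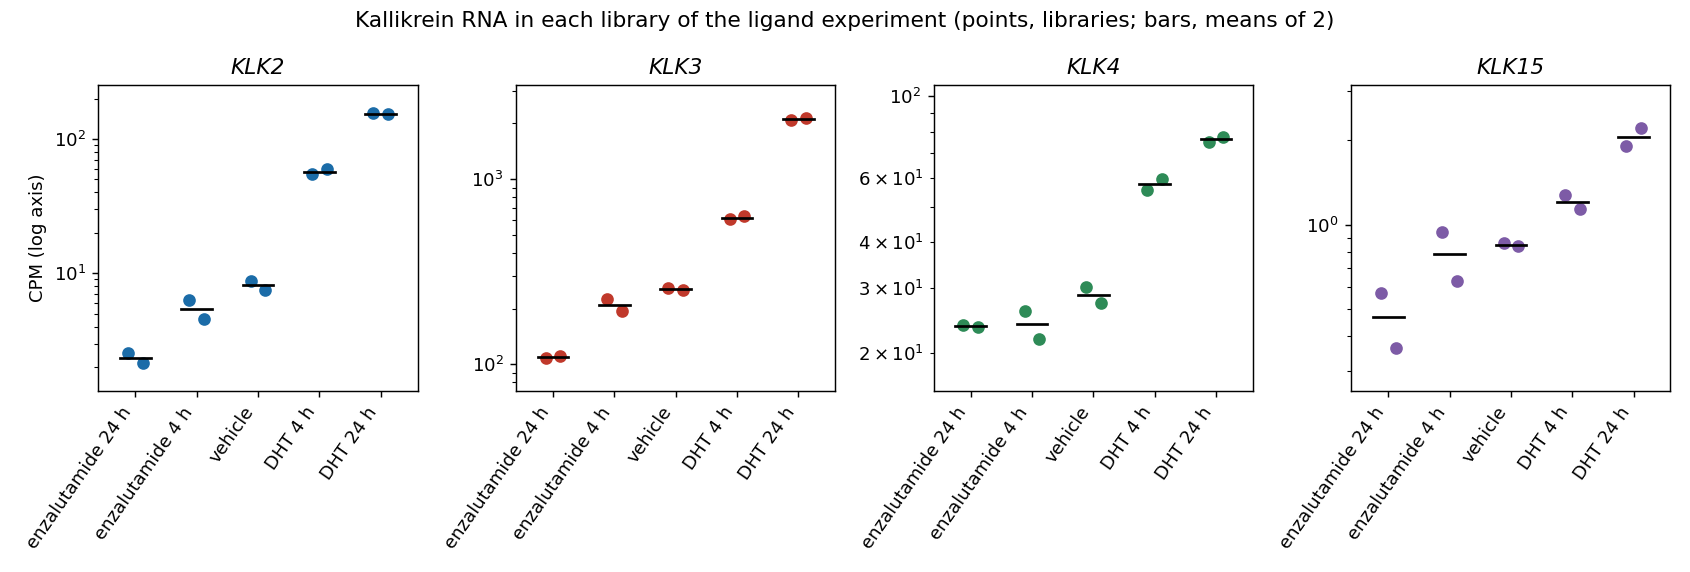
CPM of each member (log axis, 1 panel per gene) in the 2 libraries of each ligand condition, ordered from 24 h of enzalutamide to 24 h of DHT. Points are libraries and bars are means. KLK2 runs from 2.14 to 156.7 CPM, while KLK4 stays between 21.8 and 77.5 CPM.

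DHT raised KLK2 most and KLK3 next. At 4 h, 3 of the 4 members rose at an adjusted p below 0.05, and 4.66% of the 15555 genes tested were called higher in that comparison. The log2 fold changes (edgeR quasi-likelihood test, Benjamini-Hochberg adjusted over all genes) were 2.80 ± 0.09 (SE) for KLK2 (adjusted p = 5.78e-10), 1.27 ± 0.05 for KLK3 (adjusted p = 3.18e-09) and 1.00 ± 0.07 for KLK4 (adjusted p = 7.48e-07). KLK15 had a log2 fold change of 0.51 ± 0.23 with an adjusted p of 0.267.

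At 24 h of DHT all 4 members were higher than vehicle, against 26.9% of the genes tested. The log2 fold change was 4.23 ± 0.09 for KLK2 (adjusted p = 1.72e-12) and 3.05 ± 0.05 for KLK3 (adjusted p = 4.98e-13). It was 1.41 ± 0.07 for KLK4 (adjusted p = 4.99e-09) and 1.27 ± 0.22 for KLK15 (adjusted p = 0.000377). Only 29 genes had a larger log2 rise than KLK2, and 55 a larger one than KLK3. Both times share the vehicle libraries.

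The rise between 4 h and 24 h of DHT was tested directly, and all 4 members were higher at 24 h, where 26.3% of the genes were called higher. The step was larger in KLK3 (log2 fold change 1.77 ± 0.05, adjusted p = 7.09e-11) than in KLK2 (1.43 ± 0.07, adjusted p = 1.03e-08) by value, and this difference was not tested. KLK15 stepped up by 0.76 ± 0.21 (adjusted p = 0.00824) and KLK4 by 0.41 ± 0.07 (adjusted p = 0.000231). For KLK15 the call was lost without DHT 24 h replicate 2 (log2 fold change 0.65, adjusted p = 0.0568) or DHT 4 h replicate 2 (0.67, adjusted p = 0.0608).

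Enzalutamide lowered the members below the level of hormone-depleted vehicle cells. At 4 h, KLK2, KLK3 and KLK4 fell, 3 of 4 members, where 6.68% of all genes were called lower. The log2 fold changes were -0.62 ± 0.13 for KLK2 (adjusted p = 0.00702), -0.30 ± 0.05 for KLK3 (adjusted p = 0.00267) and -0.27 ± 0.08 for KLK4 (adjusted p = 0.0337). KLK15 had a value of -0.13 ± 0.26 (adjusted p = 0.799). Without enzalutamide 4 h replicate 2 the values were -0.40 for KLK2 (adjusted p = 0.0625), -0.15 for KLK4 (adjusted p = 0.251) and 0.14 for KLK15, and without vehicle replicate 1 they were -0.48 for KLK2 (adjusted p = 0.0913) and -0.20 for KLK4 (adjusted p = 0.229). KLK4 also lost its call without either enzalutamide 24 h library (-0.28, adjusted p = 0.0514 and 0.0516), while KLK3 kept its call in every fit that left out a library.

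At 24 h of enzalutamide all 4 members were lower than vehicle, against 17.0% of all genes. KLK2 fell by 1.81 ± 0.15 on the log2 scale (adjusted p = 6.92e-07) and KLK3 fell by 1.22 ± 0.05 (adjusted p = 1.56e-09), and 32 genes had a larger log2 fall than KLK2. KLK15 had a log2 fold change of -0.86 ± 0.28 (adjusted p = 0.0314) and KLK4 one of -0.28 ± 0.08 (adjusted p = 0.0121). The KLK15 call was lost without enzalutamide 24 h replicate 2 (-0.58, adjusted p = 0.232), without vehicle replicate 1 (-0.85, adjusted p = 0.116) and without vehicle replicate 2 (-0.88, adjusted p = 0.0770). The KLK4 call was lost without enzalutamide 24 h replicate 2 (-0.28, adjusted p = 0.0681) and without vehicle replicate 1 (-0.21, adjusted p = 0.116).

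Between 4 h and 24 h of enzalutamide, KLK2 and KLK3 fell further, 2 of 4 members, where 12.9% of the genes were called lower. Their log2 differences were -1.19 ± 0.16 (adjusted p = 0.000138) and -0.93 ± 0.05 (adjusted p = 3.00e-08). KLK4 had -0.01 ± 0.08 (adjusted p = 0.937) and KLK15 had -0.73 ± 0.29 (adjusted p = 0.0847), the latter below the threshold without enzalutamide 4 h replicate 2 (-1.01, adjusted p = 0.0352).

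The column names carry 3 run prefixes, and the 4 h and 24 h libraries of enzalutamide fall into different prefixes. Within a prefix, without a test, KLK3 differed from the vehicle column of the same prefix by 1.27 at 4 h of DHT on the log2 scale, and by 3.02 and 3.03 at 24 h. KLK2 differed by 2.90 at 4 h and by 4.11 and 3.99 at 24 h. For enzalutamide the within-prefix differences were -0.76 and -2.03 in KLK2, -0.31 and -1.25 in KLK3, -0.26 and -0.42 in KLK4, and -0.46 and -0.84 in KLK15, at 4 h and 24 h. All had the direction of the pooled values.

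Levels in the siRNA experiment are RPKM, reads scaled to both gene length and library depth. In siControl cells with vehicle, KLK3 was the most abundant member with 815.5, 765.4 and 792.7 RPKM. KLK4 had 78.4, 75.4 and 80.9 RPKM, KLK2 34.4, 31.6 and 34.9 RPKM, and KLK15 4.21, 3.65 and 3.70 RPKM. No library of one member overlapped another's range in these cells, and KLK4, the next most abundant, was 9.62% to 10.2% of KLK3.

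With 25 μM enzalutamide in siControl cells, KLK3 had 306.9, 294.0 and 256.4 RPKM and KLK2 had 7.30, 6.94 and 7.15 RPKM. KLK4 had 55.7, 55.8 and 51.7 RPKM, and KLK15 had 1.38, 1.93 and 1.31 RPKM. Every enzalutamide library lay below every vehicle library for all 4 members.

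In siGATA2 cells KLK3 and KLK2 were far lower. KLK3 had 26.3, 24.2 and 21.7 RPKM with vehicle and 17.6, 19.03 and 18.8 RPKM with enzalutamide. KLK2 had 0.700, 0.586 and 0.511 RPKM with vehicle and 0.313, 0.472 and 0.475 RPKM with enzalutamide. Neither gene's siGATA2 libraries came near the siControl range, and within siGATA2 the enzalutamide libraries were below the vehicle libraries without overlap.

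KLK4 had 18.9, 19.2 and 16.4 RPKM in siGATA2 cells with vehicle and 17.3, 17.98 and 16.4 RPKM with enzalutamide, and these 2 groups overlapped. KLK15 had 1.90, 1.36 and 1.51 RPKM with vehicle and 1.02, 1.62 and 1.10 RPKM with enzalutamide. Its siControl enzalutamide libraries overlapped both siGATA2 groups, so that siControl with vehicle was the single KLK15 group that stood apart.

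**Figure D2:**
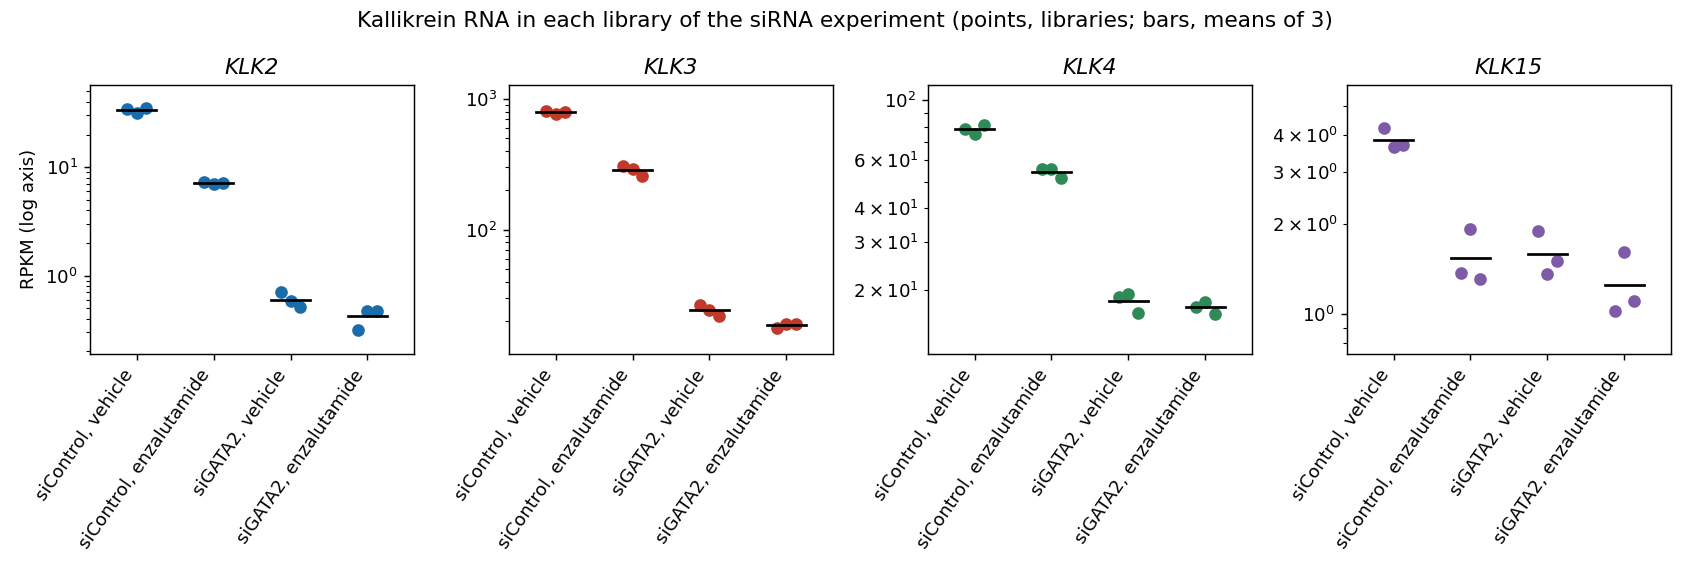
RPKM of each member (log axis, 1 panel per gene) in the 3 libraries of each siRNA and treatment group. Points are libraries and bars are means. In siGATA2 cells KLK2 stays at or below 0.700 RPKM and KLK3 at or below 26.3 RPKM, while the KLK15 groups other than siControl with vehicle overlap.

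In siControl cells, enzalutamide lowered all 4 members, where 24.4% of the 20369 genes tested were called lower. On the log2(RPKM + 0.1) scale, which understates changes of low genes, KLK2 had a log2 fold change of -2.22 ± 0.13 (limma, adjusted p = 5.24e-07) and 8 genes had a larger fall. KLK3 had -1.47 ± 0.08 (adjusted p = 2.54e-07), KLK15 -1.29 ± 0.19 (adjusted p = 0.000301) and KLK4 -0.53 ± 0.06 (adjusted p = 6.15e-05). The 10 μM and 25 μM doses belong to different experiments and instruments and were not compared.

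In siGATA2 cells, no member passed the threshold for enzalutamide, and 0.191% of all genes were called lower (limma). KLK2 had -0.43 ± 0.13 (adjusted p = 0.246) and KLK3 -0.38 ± 0.08 (adjusted p = 0.0790), and these 2 had a negative value with an unadjusted p below 0.05, as did 6.78% of all genes. KLK15 had -0.34 ± 0.19 (adjusted p = 0.564) and KLK4 -0.08 ± 0.06 (adjusted p = 0.721). KLK3 passed when siControl enzalutamide replicate 3 (adjusted p = 0.0464) or siGATA2 vehicle replicate 3 (-0.45, adjusted p = 0.0441) was left out, and among genes with a mean of at least 1 RPKM (adjusted p = 0.0199).

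The effect of enzalutamide differed between siControl and siGATA2 cells for all 4 members in the interaction test, where 15.0% of the genes were called with a positive term. The term, the log2 effect in siGATA2 cells minus that in siControl cells, was 1.79 ± 0.18 for KLK2 (adjusted p = 8.79e-05), 1.09 ± 0.11 for KLK3 (adjusted p = 7.07e-05), 0.45 ± 0.09 for KLK4 (adjusted p = 0.00369) and 0.95 ± 0.27 for KLK15 (adjusted p = 0.0246). For KLK15 the adjusted p rose to between 0.0546 and 0.0600 without siControl enzalutamide replicate 1 or 3, siControl vehicle replicate 1 or siGATA2 vehicle replicate 2, with terms of 0.85 to 0.88. Fewer cells that express a gene and less RNA per cell cannot be told apart in these bulk libraries.

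KLK2 and KLK3 kept only a few percent of their level when GATA2 was knocked down. With vehicle, all 4 members fell on GATA2 knockdown, where 31.4% of the genes were called lower. KLK2 had a log2 fold change of -5.60 ± 0.13 (adjusted p = 2.44e-10), the lowest of all 20369 genes tested, and KLK3 had -5.04 ± 0.08 (adjusted p = 1.92e-11), with 1 gene lower. KLK4 had -2.10 ± 0.06 (adjusted p = 1.09e-09) and KLK15 -1.24 ± 0.19 (adjusted p = 0.000212). In means, KLK2 kept 1.78% of its siControl level, KLK3 3.04%, KLK4 23.2% and KLK15 41.3%. LOC105372441, which overlaps KLK15, was also lower (-1.22, adjusted p = 0.0131), and its part in the KLK15 value was not tested. With a pseudocount of 1 in place of 0.1, the value was -4.44 for KLK2 and -4.98 for KLK3, so that KLK2 was then not the lowest.

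With enzalutamide, KLK2, KLK3 and KLK4 fell on GATA2 knockdown, 3 of 4 members, where 28.1% of the genes were called lower. KLK3 had -3.94 ± 0.08 (adjusted p = 9.66e-11), KLK2 -3.81 ± 0.13 (adjusted p = 3.16e-09) and KLK4 -1.65 ± 0.06 (adjusted p = 5.19e-09). KLK15 had -0.29 ± 0.19 (adjusted p = 0.231), and passed without siGATA2 enzalutamide replicate 2 (-0.48, adjusted p = 0.0434). With a pseudocount of 1 the KLK2 value was -2.52 and that of KLK3 -3.88.

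**Figure D3:**
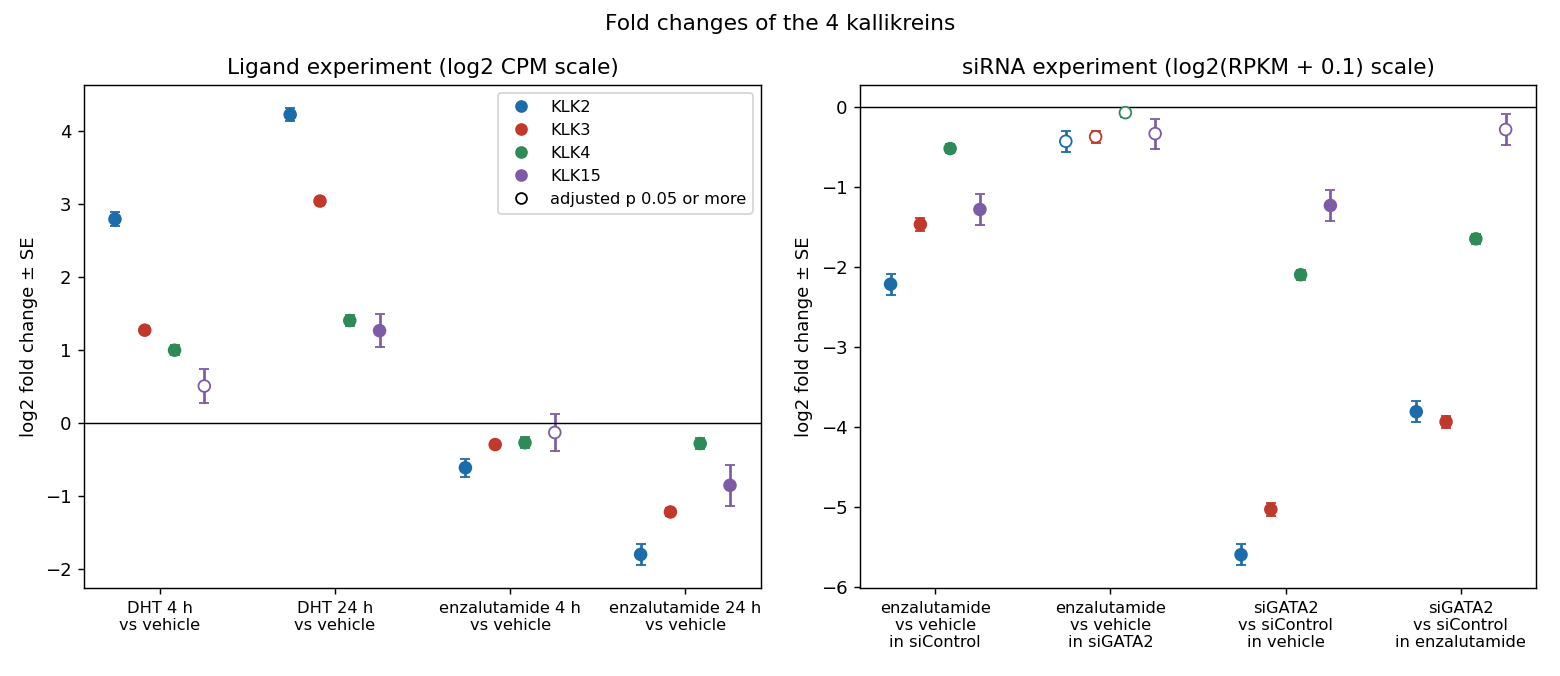
Log2 fold change with its SE (bars) of each member in the 4 ligand comparisons with vehicle (left) and the 4 siRNA comparisons (right). Filled points have an adjusted p below 0.05. KLK2 has the largest change in each panel, 4.23 after 24 h of DHT and -5.60 with siGATA2 in vehicle, and no point is filled for enzalutamide in siGATA2 cells.

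GATA2 RNA checks the knockdown. It had 77.0 to 86.1 RPKM in siControl cells with vehicle and 46.6 to 54.3 RPKM in siGATA2 cells, a log2 fold change of -0.68 ± 0.06 (limma, adjusted p = 3.12e-06). With enzalutamide it had 127.8 to 131.5 RPKM against 60.1 to 64.7 RPKM, a log2 fold change of -1.06 ± 0.06 (adjusted p = 1.07e-07). The GATA2 RNA of siGATA2 cells with vehicle was thus 62.5% of that in siControl cells, beside 1.78% for KLK2. The paper states that it established the knockdown by RT-PCR and western blot, 72 h after transfection. These libraries do not measure GATA2 protein.

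The sequences of the GATA2 siRNAs were compared with the member transcripts. None of the 4 siRNAs matched a member transcript over its full length, and the 7 bases that pair with the guide seed were found in KLK2 and KLK15 transcripts for siRNAs 2 and 3. These sense sequences are shown with those 7 bases in capitals.
siRNA 2: acuacaagcugCACAAUGu
siRNA 3: gaagagccggcACCUGUUg
The siRNA 3 site occurred in 17 of 23 annotated KLK2 transcripts and 2 of 7 KLK15 transcripts, and the siRNA 2 site in 7 and 4. No KLK3 or KLK4 transcript holds any of the 4 sites. Such sites are common, since 24.0% and 20.4% of 19702 protein-coding genes hold the site of siRNA 3 and siRNA 2 in at least 1 transcript. Their part in the KLK2 value was not tested.

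The proportions of the members to each other shifted between conditions. Counts are not corrected for length, so these ratios serve only to compare libraries. KLK2 was 2.95% and 3.39% of KLK3 by counts in vehicle, 9.08% and 9.39% after 4 h of DHT, and 7.14% and 7.48% after 24 h of DHT. With enzalutamide it was 2.35% and 2.80% at 4 h and 1.92% and 2.37% at 24 h. The KLK2 share was thus highest at 4 h of DHT, in both libraries.

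KLK4 moved the other way against KLK3. It was 10.8% and 11.6% of KLK3 by counts in vehicle, 3.59% and 3.62% after 24 h of DHT, and 21.1% and 22.0% after 24 h of enzalutamide. In RPKM, KLK4 was 9.62% to 10.2% of KLK3 in siControl cells with vehicle, 71.8% to 79.4% in siGATA2 cells with vehicle, and 86.9% to 98.4% in siGATA2 cells with enzalutamide. In the last group the 2 genes had nearly the same level per length.

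Over the 12 siRNA libraries, 6 ratio contrasts were tested by exact 2-sided permutation of the labels within the other factor (treatment labels within each siRNA, siRNA labels within each treatment), whose smallest p is 0.005. This test was chosen after seeing the data. The log2 ratio of KLK4 to KLK3 was higher in siGATA2 than in siControl libraries by 2.61, and that of KLK15 to KLK3 by 3.70 (exact permutation p = 0.005, adjusted p = 0.01 for each), without overlap. With enzalutamide the ratio of KLK4 to KLK3 was higher by 0.95 in siControl and by 0.30 in siGATA2 cells (exact permutation p = 0.005, adjusted p = 0.01), and its libraries did not overlap with vehicle within either siRNA. The ratio of KLK2 to KLK3 differed by -0.47 with siGATA2 (exact permutation p = 0.03, adjusted p = 0.042) and by -0.46 with enzalutamide (exact permutation p = 0.035, adjusted p = 0.042). Each value is the mean of a larger and a smaller difference. For siGATA2 these were -0.78 with vehicle and -0.16 with enzalutamide. For enzalutamide they were -0.76 in siControl and -0.15 in siGATA2 cells. The libraries compared overlapped in the smaller difference of each. The ratio of KLK15 to KLK3 differed by 0.07 with enzalutamide (exact permutation p = 0.59). When labels were instead permuted over all 12 libraries, ignoring the other factor, the KLK2 contrasts (adjusted p = 0.110 each) and the KLK4 contrast for enzalutamide (adjusted p = 0.590) did not pass.

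**Figure D4:**
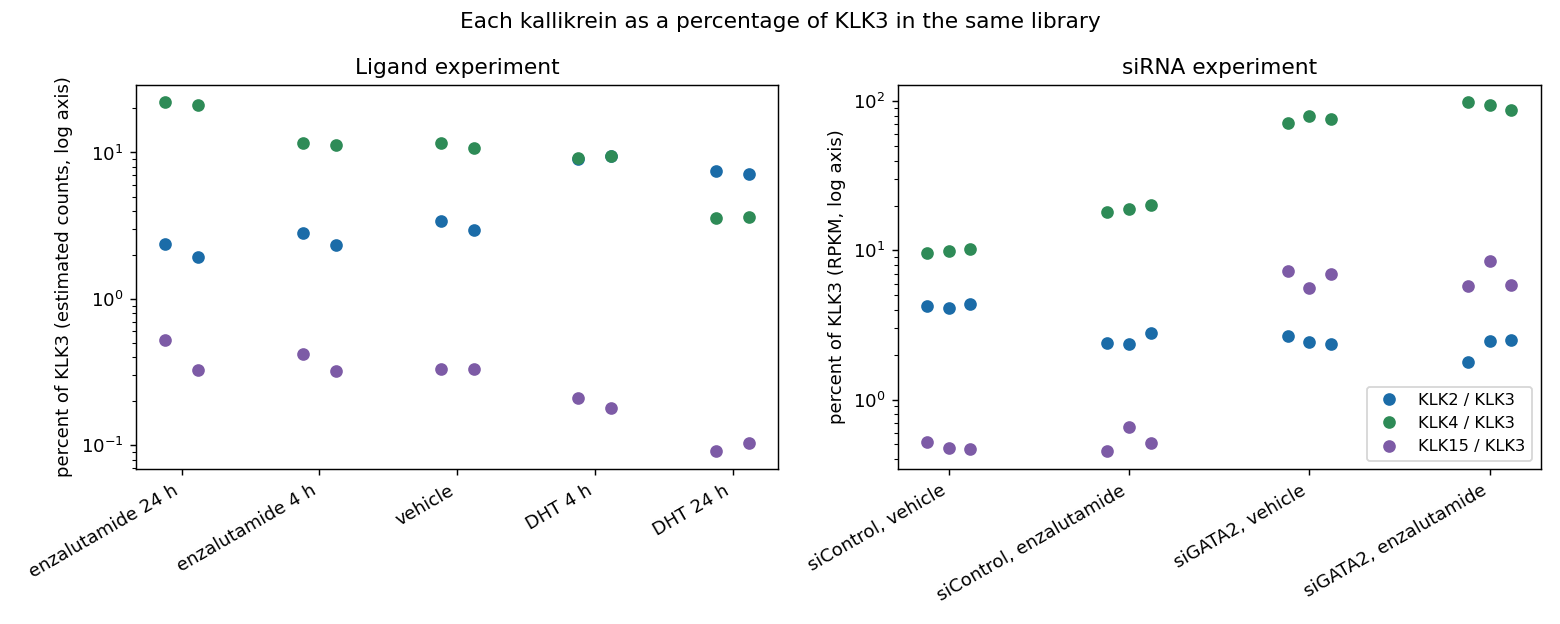
KLK2, KLK4 and KLK15 as a percentage of KLK3 in the same library (log axes), from estimated counts in the ligand experiment (left) and from RPKM in the siRNA experiment (right). Each point is a library, and the KLK2 and KLK4 points coincide at 4 h of DHT. KLK4 reaches 86.9% to 98.4% of KLK3 in siGATA2 cells with enzalutamide.

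The other kallikreins listed had at most 0.138 CPM and 0.854 RPKM in any LNCaP library, apart from the pseudogene KLKP1, which lies between KLK2 and KLK4. Of the 12, KLKP1 alone passed the filter in the ligand experiment, and it was higher after 24 h of DHT with a log2 fold change of 1.48 ± 0.18 (edgeR, adjusted p = 1.77e-05). Of the 10 tested in the siRNA experiment, 4 were lower with enzalutamide in siControl cells, against 24.4% of all genes. They were KLKP1 (-1.20), KLK1 (-0.63), KLK8 (-0.66) and KLK12 (-0.92). KLK8 and KLK12 were barely detected, with at most 0.133 and 0.253 RPKM in siControl cells with vehicle. With siGATA2 in vehicle, KLKP1 (-2.37 ± 0.16, adjusted p = 4.46e-07) and KLK8 (-0.67) were lower and KLK7, a skin protease, was higher (1.88 ± 0.14, adjusted p = 9.96e-07). KLK7 stayed between 0.270 and 0.389 RPKM in siGATA2 cells and at or below 0.0484 RPKM in siControl cells. With siGATA2 under enzalutamide, 3 of the 10 were higher and 1, KLKP1, was lower, against 26.3% and 28.1% of all genes. KLK11 had a log2 fold change of 1.01 ± 0.14 there (limma, adjusted p = 0.000110).

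Outside the cluster, C19orf48 on the side of KLK1 also changed. Of the 5 flanking genes, 4 were tested in the siRNA experiment, and 3 were lower with siGATA2 in vehicle, against 31.4% of all genes. C19orf48 fell from 117.6 to 126.9 RPKM down to 14.5 to 14.7 RPKM, a log2 fold change of -3.07 ± 0.03 (limma, adjusted p = 3.16e-12), which 8 genes exceeded. SIGLEC9 had -0.91 and CTU1 -0.38, and ACP4 did not pass. SIGLEC9 and ACP4 were barely detected, with at most 0.113 and 0.107 RPKM in siControl cells with vehicle. In the ligand experiment DHT raised C19orf48, with log2 fold changes of 0.69 ± 0.04 (4 h) and 1.08 ± 0.04 (24 h; edgeR, adjusted p = 7.11e-08 and 2.00e-10). After 24 h of enzalutamide its log2 fold change was -0.52 ± 0.04 (adjusted p = 4.55e-07).

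**Figure D5:**
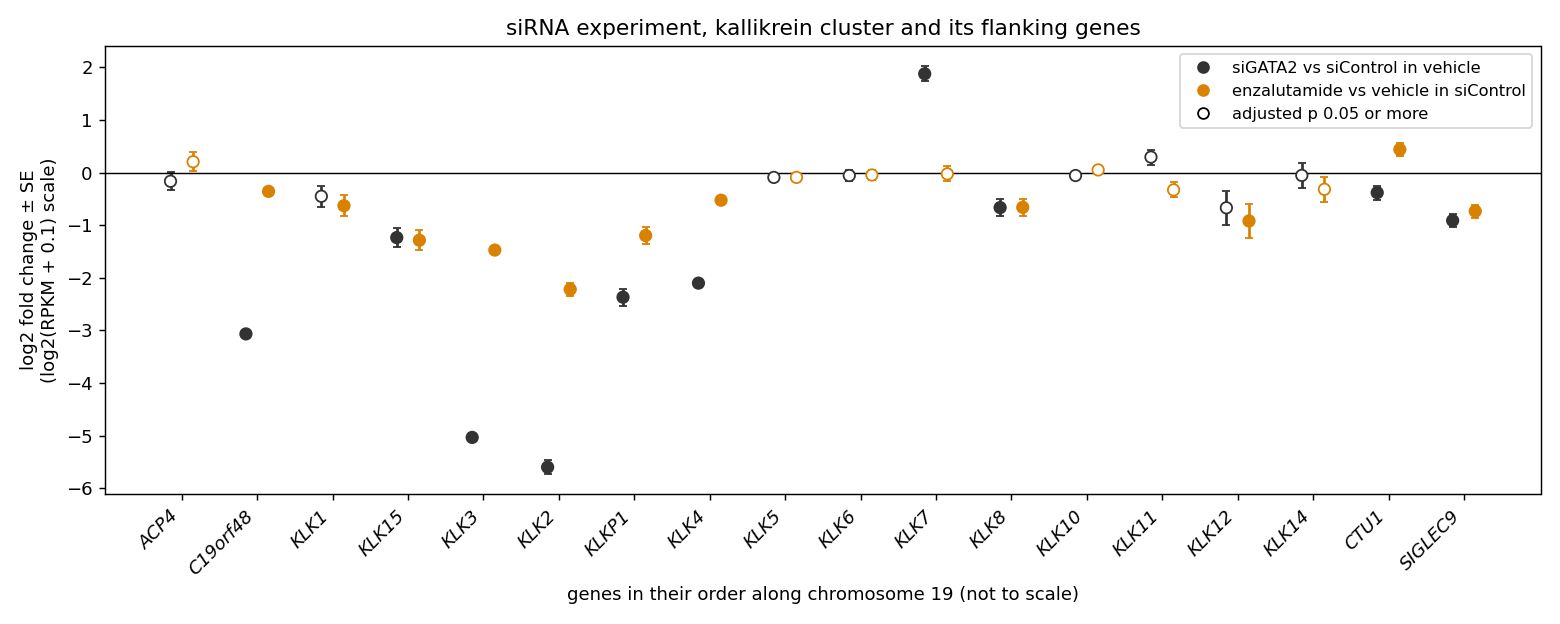
Log2 fold change with its SE of the kallikreins and flanking genes in the siRNA experiment, in their order along chromosome 19, for siGATA2 against siControl in vehicle (dark) and enzalutamide against vehicle in siControl cells (orange). Filled points have an adjusted p below 0.05. The dark points of C19orf48, KLK15, KLK3, KLK2, KLKP1 and KLK4 lie between -1.24 and -5.60, and that of KLK7 lies at 1.88. The dark point of KLK1, which lies between C19orf48 and KLK15, is open.

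The genes most like each member were ranked by the root mean square difference of their log2 profiles over the 9 conditions, each experiment centred on its own mean, among 11367 genes. KLK2 and KLK3 were each other's nearest genes, with a difference of 0.60. The 5 nearest of KLK2 also held SLC45A3 (1.34), C19orf48 (1.39) and TMPRSS2 (1.43). Those of KLK3 held C19orf48 (0.90), CRYBG1 (1.02) and SLC45A3 (1.05). KLK4 was closest to GNB4 (0.17), KLKP1 (0.22), PLPP1 (0.23), ZNF385B (0.26) and KCNN2 (0.27). KLK15 was closest to CHAC2 (0.11), CENPO (0.14), IGFLR1 (0.15), CCDC86 (0.16) and SLC29A1 (0.16), and a member with small changes has many near genes. TMPRSS2 encodes a membrane serine protease.

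Of the factors known to act at the KLK3 locus, 5 are described, namely GATA2, FOXA1, HOXB13 and the Mediator subunits MED1 and MED14. With siGATA2 in vehicle, where 31.4% of all genes were called lower and 24.2% higher, 3 of the 5 were lower and 0 higher (limma). Besides GATA2 these were MED1 (-0.35 ± 0.04, adjusted p = 2.25e-05) and MED14 (-0.38 ± 0.03, adjusted p = 2.35e-06). FOXA1 had 0.03 ± 0.04 (adjusted p = 0.489) and HOXB13 -0.09 ± 0.04 (adjusted p = 0.120). With siGATA2 under enzalutamide, MED1 had -0.09 ± 0.04 (limma, adjusted p = 0.067) and MED14 -0.32 ± 0.03 (adjusted p = 8.88e-06). These are RNA values, and the paper reports from western blots that MED1 and MED14 protein did not change on GATA2 silencing. After 24 h of DHT, where 23.2% of all genes were called lower and 26.9% higher, 3 of the 5 were lower and 0 higher (edgeR). The log2 fold changes of these 3 were -0.33 ± 0.05 for GATA2 (adjusted p = 7.03e-05), -0.24 ± 0.03 for FOXA1 (adjusted p = 9.86e-06) and -0.26 ± 0.04 for HOXB13 (adjusted p = 0.000231).

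Substrates and partners of the proteases were also listed. Of 4 substrates, the semenogelins SEMG1 and SEMG2 did not pass in any siRNA comparison. They had at most 0.0285 and 0.0197 RPKM in any siRNA library. FN1 and IGFBP3 were lower with siGATA2 in vehicle, where 31.4% of all genes were called lower. FN1, fibronectin, had -2.76 ± 0.04 (limma, adjusted p = 2.46e-11) and IGFBP3, an IGF-binding protein, -1.96 ± 0.09 (adjusted p = 3.55e-08). Of 5 inhibitors, 4 were tested in the siRNA experiment (limma). With enzalutamide in siControl cells 1 was higher and 1 lower, where 17.7% of all genes were called higher and 24.4% lower. SERPINA3, the serpin that binds PSA in serum, was higher with enzalutamide in siControl cells (2.17 ± 0.11, adjusted p = 1.59e-07), from at most 0.571 RPKM with vehicle. SERPINA5, the protein C inhibitor, was lower (-0.89 ± 0.17, adjusted p = 0.00203), from at most 0.378 RPKM in siControl cells with vehicle. The study lists SERPINA3 among its own enzalutamide-induced genes, so this is not independent evidence. F2RL1, a receptor that KLK2 and KLK4 can activate, was higher with DHT, with log2 fold changes of 0.57 ± 0.05 (4 h) and 0.58 ± 0.05 (24 h; edgeR, adjusted p = 2.50e-06 and 3.42e-07).

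The luminal markers KRT8, KRT18, FOLH1 and HOXB13 summed to 2518 to 3233 CPM and 482.6 to 707.6 RPKM. The 3 basal markers summed to at most 0.485 CPM and 0.113 RPKM, and the 4 blood markers to at most 0.243 CPM and 0.124 RPKM. The 3 stromal markers summed to 14.9 to 29.2 CPM and 9.72 to 16.3 RPKM, nearly all of it from COL1A1. With vehicle, the luminal sum was 500.1 to 523.4 RPKM in siControl cells and 685.2 to 707.6 RPKM in siGATA2 cells. Ligand libraries held 38894876 to 59985287 estimated counts, and the steps between low RPKM values place the siRNA libraries at about 58800000 to 76800000 mapped reads.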

How the data were processed

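RNA-seq libraries of LNCaP cells from 24 samples were analysed. For the ligand experiment the authors aligned reads with TopHat, obtained gene values in Partek Genomics Suite. They deposited these as estimated counts, not normalized. For the siRNA experiment the deposited values are RPKM, computed by the authors. The submitters' processing notes name the build hg19, and the files hold no coordinates, so positions were taken from GRCh38 annotations by symbol. The number of columns of values that were not used is 0.

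Estimated counts were rounded and tested with the quasi-likelihood functions of edgeR 4.0.16 under R 4.3.3. TMM normalization and the default count filter were used, and the model held 5 conditions. A gene missing from a table was set to 0. RPKM values above 0 in at least 3 libraries entered limma 3.58.1 (trended variance) as log2(RPKM + 0.1), in a model of 4 groups. A gene was called at a Benjamini-Hochberg adjusted p below 0.05. All tests run across every gene in the table, and p-values measure the spread between these replicates. Ratios were tested by exact permutation, over all siRNA libraries (scipy 1.17.1) and within the other factor. DESeq2 1.42.0, other factors and filters, single vehicle runs, replicates left out, the replicate block and the run prefix as a term were alternatives, the last chosen after seeing the data. The edgeR and limma fits were tested on simulated data. Sequences were aligned with Biopython 1.88 and figures drawn with matplotlib 3.10.9.

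Named genes were the members, the other kallikreins that were called, flanking genes, substrates, inhibitors and factors, and the 5 most similar genes of each member (with 0.5 added to CPM). LOC105372441 was added afterwards. Some genes of these lists are not reported here, and the counts and sums given leave them out. The members and lists were chosen with earlier results of these data known. To check pairing, each library's deviation from its group mean was correlated with that of the same number in another group, which gave -0.138 to 0.104 for the ligand libraries. Among the siRNA groups all 3 pairs exceeded 0.1 only between siControl and siGATA2 with enzalutamide (0.113, 0.241 and 0.148), where the labels do not say what the numbers share. Depth limits precision for KLK15.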

Additional observations from a re-analysis of the deposited data

Results flagged for a closer look

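The effect of enzalutamide differed between siControl and siGATA2 cells for all 4 members (limma interaction term). The log2 effect in siGATA2 cells minus that in siControl cells was 1.79 for KLK2, 1.09 for KLK3, 0.45 for KLK4 and 0.95 for KLK15. In the same term 15.0% of all genes were higher, and the KLK15 call was lost in some fits that left out a library, as given in the report.

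The effect of DHT differed between 24 h and 4 h for all 4 members (edgeR), by 1.43 for KLK2, 1.77 for KLK3, 0.41 for KLK4 and 0.76 for KLK15 on the log2 scale. The effect of enzalutamide differed between the times for KLK2 (-1.19) and KLK3 (-0.93). The 4 h and 24 h libraries of each ligand carry different run prefixes, and with the prefix as a term these differences were called except that of KLK15 with DHT (0.53, adjusted p = 0.343).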

How the results depend on the processing

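Of 44 member results, 33 kept their direction and their side of the threshold under every alternative that was run. With library size alone as the factor, the difference of KLK4 between 24 h and 4 h of enzalutamide was 0.000. Without the count filter, that of KLK15 was -0.73 and passed. Under DESeq2, KLK15 no longer passed for enzalutamide at 24 h (-0.88) or for DHT at 24 h against 4 h (0.77). With only the compared groups, KLK4 no longer passed for enzalutamide at 4 h (-0.27), nor with vehicle run ZC1 (-0.26) or ZC2 (-0.22) alone. KLK15 no longer passed for enzalutamide at 24 h with run ZC1 (-0.76) or ZC3 (-0.82) alone. With the run prefix as a term, chosen after seeing the data, the values that no longer passed were -0.30 for KLK4 with enzalutamide at 4 h, and -1.04 and 0.53 for KLK15 with enzalutamide at 24 h and with DHT at 24 h against 4 h. Among genes with a mean of at least 1 RPKM, KLK3 passed for enzalutamide in siGATA2 cells (-0.38). The cause was not tested in any of these.

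With each replicate left out in turn, the log2 values at 4 h of enzalutamide ranged from -0.85 to -0.40 for KLK2, from -0.40 to -0.15 for KLK4 and from -0.43 to 0.14 for KLK15. At 24 h of enzalutamide they ranged from -0.36 to -0.21 for KLK4 and from -1.23 to -0.58 for KLK15. Between the enzalutamide times they ranged from -0.14 to 0.12 for KLK4 and from -1.10 to -0.42 for KLK15, and between the DHT times from 0.65 to 0.87 for KLK15. For enzalutamide in siGATA2 cells KLK3 ranged from -0.45 to -0.31. For KLK15, siGATA2 under enzalutamide ranged from -0.48 to -0.12 and the interaction term from 0.76 to 1.11. With a lone library in a group, it is assumed to vary like the others.

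The replicate block changed no member call. With it the values were 4.24 for KLK2 with DHT at 24 h and 1.79 for its interaction term. It lowered the number of genes called for enzalutamide in siGATA2 cells from 84 to 29. With only the compared groups this number was 24, and that for enzalutamide at 4 h fell from 2119 to 781. With the run prefix as a term, the genes called were 1224 at 4 h of enzalutamide, and 1628 against 3829 between the enzalutamide times. With a replicate left out, the lowest numbers were 570 (of 1053) for DHT at 4 h, 1058 for enzalutamide at 4 h, 3098 (of 5194) at 24 h, 2139 between the times and 27 in siGATA2 cells.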
